A study of Mus musculus with 8 samples.

Results

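The clustered histone genes were 68 genes, all those of the 24421 gene symbols measured that start with Hist1h, Hist2h, Hist3h or Hist4h. By family they were 6 genes of the linker histone H1, 18 of H2A, 19 of H2B, 12 of H3 and 13 of H4. By cluster they were 54 Hist1, 10 Hist2, 3 Hist3 and 1 Hist4 gene. The RNA came from RAW macrophages (the RAW264.7 line in the study's methods), a mouse cell line, in 4 groups of 2 libraries. MCD cells received 5 mM methyl-β-cyclodextrin, a ring sugar that extracts cholesterol from membranes, for 1 h, and ctl cells were untreated. MCD-LPS cells received the same MCD treatment, were washed and then received 100 ng/ml lipopolysaccharide (LPS, a bacterial ligand of TLR4) for 3 h, and LPS cells received the LPS alone. In the study MCD lowered cholesterol faster than statins do, and it served both to check that statin effects came through cholesterol and to allow short experiments with inhibitors. Which deposited libraries are the ctl and LPS samples was inferred from the tables that they share with the MCD libraries. All cells came from 1 cell line. The labels leave unsaid whether the 2 libraries of a group were grown apart, so the p-values cover the spread among these libraries alone, and that spread may be technical.

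Clustered histone genes supply the histones that package newly copied DNA, and most are transcribed during S phase of the cell cycle. Their mRNAs are unusual in that they normally carry no poly(A) tail. The pre-mRNA is cut just after a conserved stem-loop, which is bound by SLBP, with help from the U7 small nuclear ribonucleoprotein. Several of these genes can also give a longer mRNA that runs past the stem-loop to a poly(A) signal, a form known from cells that have left the cycle. Some genes outside the clusters, such as H2afz, H3f3a and H3f3b, make histones throughout the cycle from ordinary polyadenylated mRNAs.

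The 2 kinds of transcript end are shown first because the levels below are set beside them. The stem-loop was found in the annotated transcript of 43 of the 68 genes (GENCODE release 21, GRCm38, the build also called mm10), against 4 of 21810 other protein-coding genes (0.0183%). The search used a fixed pattern of 16 bases. Matches came in 6 spellings, and the most frequent was shared by 25 genes. The genes without a match had annotated transcripts with a median of 411 bases. A transcript model that stops before a stem-loop cannot show it, so no match does not mean that the gene lacks one. Below, the stem-loop is in capitals with up to 5 bases on either side.
Hist1h1c, the most frequent spelling: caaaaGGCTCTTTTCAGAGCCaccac
Hist1h3c, a spelling of 6 genes: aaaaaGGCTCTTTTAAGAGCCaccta
Hist1h4d, a spelling of 7 genes: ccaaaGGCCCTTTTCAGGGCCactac
Hist1h4i, a spelling of 2 genes: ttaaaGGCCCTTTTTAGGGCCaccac

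The annotated transcript ended within 100 bases after the stem-loop in 21 genes. In 17 genes it ended at a poly(A) signal (AATAAA or ATTAAA in the last 40 bases). In 16 of these it either ran more than 100 bases past the stem-loop or had no stem-loop match, and in Hist1h4h it ended 46 bases after the stem-loop. A poly(A) signal in the last 40 bases was found in 71.7% of other protein-coding genes. For Hist1h1c the model of 1560 bases ran 840 bases past its stem-loop, for Hist3h2a the model of 2146 bases ran 1643 bases past it and for Hist1h4i the model of 727 bases ran 330 bases past it. Hist2h2be had a model of 2620 bases with no stem-loop match. The signals of these 4 genes, the ones with a poly(A) end and the highest levels, are in capitals below.
Hist1h1c: gtatgcttctAATAAAaagcgtttagtttt
Hist2h2be: tattattattAATAAAgttaccgattagtt
Hist3h2a: gtatatgcccAATAAAataagagtacgtgt
Hist1h4i: ttctgtttacATTAAAagtattctatgcta

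The clustered histone genes gave very few reads. They took 1402 to 2438 of the 38645458 to 48436956 reads in genes per library. Summed over the 68 genes, the level in CPM (reads of a gene in every 1000000 reads in genes) was 29.4 and 30.5 in the MCD libraries, 36.6 and 32.4 in the ctl libraries, 53.6 and 60.7 in the MCD-LPS libraries and 42.3 and 48.4 in the LPS libraries. In 12 genes no library had a read, and a count of 0 is compatible with at most 0.0619 to 0.0776 CPM, depending on the library (3 counts, counting error only). The median gene averaged 0.0530 CPM over the 8 libraries, below what 3 reads give in any single library. Per length, the 68 genes summed to 24.5 to 45.3 CPM per kb in a library. The 11 histone genes outside the clusters that were listed as replication-independent summed to 652 to 1072 CPM per kb. That is the name of the list, and whether each of the 11 is independent of replication was not tested.

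Only 5 clustered genes averaged above 1 CPM, and together they held 85.6% of the reads of the 68 genes. Per length, Hist1h1c (linker histone H1.2) led with a mean of 11.2 CPM per kb over the 8 libraries. It was followed by Hist1h2bc (an H2B gene) with 4.33, Hist1h4i (an H4 gene) with 3.06, Hist2h2be (an H2B gene) with 2.99 and Hist3h2a (an H2A gene) with 1.51 CPM per kb. For comparison, the replication-independent genes H3f3b (histone H3.3), H2afz (the variant H2A.Z) and H1f0 (linker histone H1.0) averaged 211, 191 and 162 CPM per kb. No H3 gene reached 1 CPM, and the highest, Hist1h3g, averaged 0.325 CPM (0.614 CPM per kb). The next genes by CPM, Hist1h2ae (H2A) with 0.537, Hist2h2bb (H2B) with 0.376 and Hist1h4k (H4) with 0.374 CPM, rested on 8 to 37 reads in a library.

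**Figure D1:**
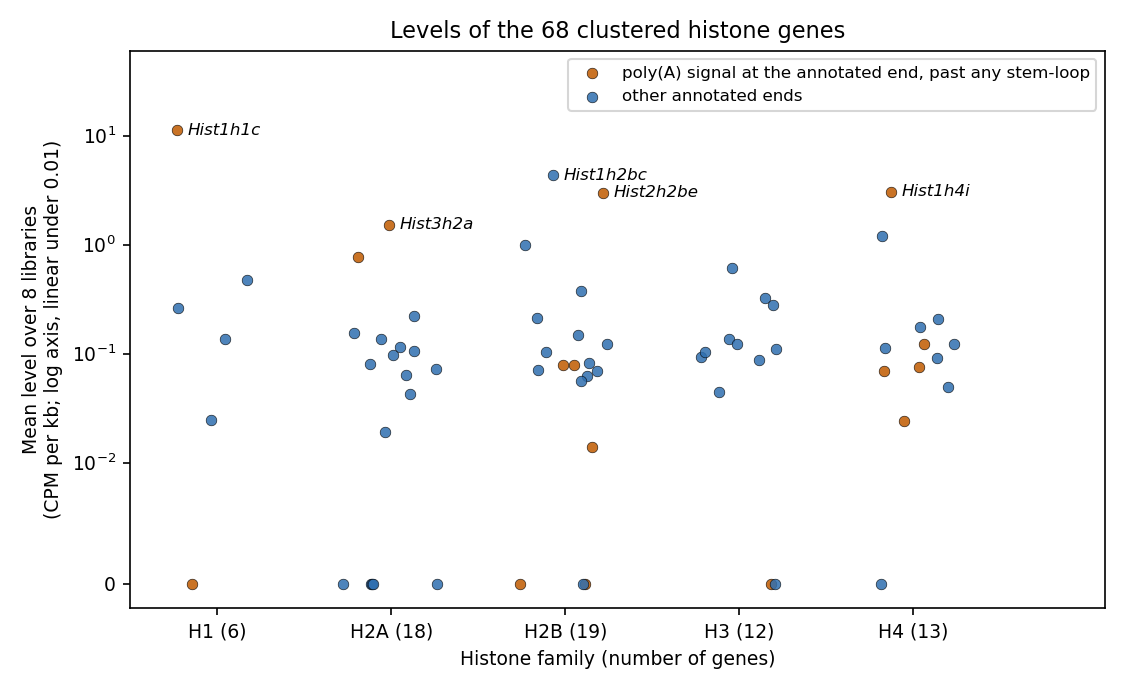
Mean level of each clustered histone gene over the 8 libraries, in CPM per kb of exon on a log axis that is linear under 0.01, by family; orange genes have an annotated transcript that ends at a poly(A) signal and not at the stem-loop. The 5 labelled genes lie between 1.51 and 11.2 CPM per kb, and the 12 genes on the bottom line had no read.

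Of the 5 genes above 1 CPM, 4 were among the 16 with a poly(A) signal at the annotated end and no end near a stem-loop. These 16 genes held 76.9% of the clustered histone reads, although 12 of them stayed under 1 CPM and 4 had no read. Those 12 together held 3.08%, so nearly all of the share came from the 4 genes above 1 CPM. The exception among the 5 genes was Hist1h2bc. Its annotated transcript of 1156 bases in 2 exons had no stem-loop match and its last poly(A) signal 441 bases from its end. The 21 genes annotated to end within 100 bases of the stem-loop held 2.55% of the reads, and none averaged above 0.202 CPM. The median gene had 0.0677 CPM in the 16 and 0.0438 CPM in the 21. The 16 and the 21 genes also differed in median transcript length (1255 and 482 bases). The median share of 50-base pieces found in no other gene was 73.3% in the 16 and 39.6% in the 21. A link of level to the kind of end was not tested. The transcript ends come from the annotation, and the reads of these libraries were not mapped along the genes here.

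The libraries were described as total RNA depleted of ribosomal RNA, a preparation that does not select poly(A) tails. Other RNAs were listed as lacking poly(A) tails, and most of those measured were low in these libraries as well. Malat1 and Neat1 were not low, and whether their transcripts carry poly(A) tails was not examined, so their levels do not show how tail-less RNAs were recovered. Of 19 such genes listed, 14 were among the symbols measured. Apart from the long nuclear RNAs Malat1 and Neat1, the 12 others, among them the RNase P RNA Rpph1, the RNase MRP RNA Rmrp and the telomerase RNA Terc, did not exceed 2.12 CPM in any library, and 3 had no read in any. Rpph1 had 0.434 and 0.739 CPM in MCD, 0.613 and 0.617 in ctl, 0.343 and 0.473 in MCD-LPS and 0.396 and 0.569 CPM in LPS libraries. Malat1 ranged over the 8 libraries between 170 and 920 CPM, and the LPS libraries differed in it, with 556 CPM in replicate 1 and 920 CPM in replicate 2. Why the 12 RNAs and the clustered histone genes were low was not tested.

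Many clustered genes share sequence with other copies, and the part of shared reads in these levels was not tested. In 32 of the 68 genes fewer than 50% of the 50-base pieces of the transcript were found in no other gene, and these 32 genes averaged at most 0.376 CPM each. The 12 genes without a read had a median of 8.56% of such pieces, and the 56 genes with a read had 54.4%. Hist1h2bq, Hist2h2aa2 and Hist2h3c1 had 0 such pieces. In Hist1h1c the share was 91.5%, in Hist2h2be 100%, in Hist1h4i 71.1%, in Hist1h2bc 69.9% and in Hist3h2a 68.5%. Hist3h2a also overlaps Trim17 and Gm44313 in the annotation, and 24 of the 68 genes overlap some other gene. The sources used here do not say how shared reads and strand were treated in counting, and the low levels of near-identical copies are uncertain.

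Markers of macrophages were present, with 9 of 10 above 1 CPM in every library (Mertk was the exception). The list summed to 9624 to 9808 CPM in MCD, 9826 to 10204 in ctl, 13189 to 14028 in MCD-LPS and 13578 to 14110 CPM in LPS libraries. Most of the sum was Lyz2, with a mean of 5649 CPM in ctl and 9250 CPM in LPS, and the markers did not all go 1 way. Itgam averaged 210 CPM in ctl and 738 CPM in LPS. Cd68 averaged 755 and 418 CPM, and Adgre1 162 and 104 CPM, in ctl and LPS. Of 17 markers of other cell types, 16 were measured, none exceeded 0.349 CPM in any library and 5 had no read.

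MCD alone was compared with ctl, both without LPS. None of the clustered histone genes was called. The strongest difference among the expressed genes was in Hist2h2be, which had 6.77 and 6.52 CPM in MCD libraries, against 9.49 and 7.88 CPM in ctl libraries. Both MCD libraries lay below both ctl libraries, but the log2 fold change of -0.37 (SE 0.10) had a limma adjusted p of 0.149. A fit of the 4 MCD and ctl libraries alone gave an adjusted p of 0.0373 for the same change. Hist3h2a had 3.08 and 2.87 CPM in MCD, against 4.11 and 3.56 CPM in ctl, again without overlap (log2 fold change -0.36, SE 0.14, limma adjusted p = 0.391).

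Hist1h4i had 2.06 and 2.19 CPM in MCD, against 2.59 and 2.56 CPM in ctl (log2 fold change -0.26, SE 0.17, limma adjusted p = 0.670). Here too the groups did not overlap and the test was not passed. With 2 against 2 libraries, full separation has a two-sided exact permutation p of 0.333. How many of all genes were separated in this way was not counted. In Hist1h1c the groups overlapped, with 9.21 and 10.3 CPM in MCD, against 11.2 and 9.96 CPM in ctl (log2 fold change -0.11, SE 0.10, limma adjusted p = 0.774). Hist1h2bc likewise overlapped, with 1.84 and 2.499 CPM in MCD, against 2.09 and 1.96 CPM in ctl (log2 fold change 0.09, SE 0.17, limma adjusted p = 0.919).

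A gene entered the test when its normalized value was at least 10 in 2 or more libraries of the table, which 15 of the 68 genes did. Hist1h1a and Hist1h1d (both H1) passed through the ctl libraries only. Of these 15 genes 0 were called at an adjusted p of 0.05 and 2 had an unadjusted p under 0.05 (Hist2h2be and Hist3h2a). Over all 11777 genes tested 1.11% were called, 127 higher and 4 lower. The median log2 fold change was -0.26 over the 15 genes, 11 of them negative, and 0.00 over all genes. Hist1h1a and Hist1h1d entered through the group where they were high and so had to be negative, and without them the median over 13 genes was -0.11, with 9 negative. The standard error was 0.10 to 0.17 for the 5 genes above 1 CPM and 0.34 to 0.54 for the other 10 genes, where only large changes were detectable at this depth.

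Summed over the 68 genes, the level averaged 30.0 ± 0.725 CPM in MCD and 34.5 ± 2.98 CPM in ctl (SD, n = 2 each, two-sided exact permutation p = 0.333, the smallest that 2 against 2 libraries can give). H2B genes summed to 10.0 and 10.5 CPM in MCD, against 13.5 and 11.5 CPM in ctl. H3 genes summed to 1.38 and 1.59 CPM in MCD, against 1.68 and 1.30 CPM in ctl. The H1, H2A, H2B and H4 sums did not overlap between groups, each with a two-sided exact permutation p of 0.333, and the H3 sums did.

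MCD given before LPS was compared with LPS alone. Hist1h1c rose. It had 26.9 and 31.6 CPM in MCD-LPS libraries, against 20.02 and 20.9 CPM in LPS libraries, from 1096 and 1271 reads, against 860 and 807. Both MCD-LPS libraries were above both LPS libraries, 1.45-fold on the fitted scale (log2 fold change 0.53, SE 0.10, limma adjusted p = 0.0038). Leaving out each of the 8 libraries in turn gave log2 fold changes of 0.42 to 0.64 with adjusted p-values of 0.0045 to 0.0353. H1.2 is one of several linker histones, which bind DNA where it enters and leaves the nucleosome.

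Hist1h2bg, an H2B gene, was called higher as well, at a far lower level. It had 19 and 23 reads in MCD-LPS libraries, against 7 and 5 reads in LPS libraries, which is 0.466 and 0.573 CPM, against 0.163 and 0.129 CPM (log2 fold change 1.69, SE 0.42, limma adjusted p = 0.0168). The gene passed the filter on low values only through the MCD-LPS libraries, so a gene so chosen had to differ, and without either MCD-LPS library it was not tested. Just 50.3% of its 50-base pieces were found in no other gene. In MCD and ctl libraries it had 4 and 7, against 6 and 6 reads.

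The other expressed genes did not pass the test. Hist1h2bc had 7.92 and 9.21 CPM in MCD-LPS, against 6.40 and 8.13 CPM in LPS (log2 fold change 0.26, SE 0.17, limma adjusted p = 0.296), and the groups overlapped. Hist2h2be had 7.95 and 8.36 CPM in MCD-LPS, against 7.71 and 7.89 CPM in LPS, a log2 fold change of 0.08 (SE 0.10, limma adjusted p = 0.595). Its groups lay next to each other without overlap.

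Hist3h2a had 3.16 and 3.56 CPM in MCD-LPS, against 2.58 and 3.08 CPM in LPS (log2 fold change 0.27, SE 0.14, limma adjusted p = 0.194). Hist1h4i had 2.33 and 2.22 CPM in MCD-LPS, against 1.61 and 2.23 CPM in LPS (log2 fold change 0.28, SE 0.17, limma adjusted p = 0.263), and without LPS replicate 2 its adjusted p was 0.0442. That library lay level with the lower MCD-LPS library.

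Of the 13 genes tested 2 were called higher and 0 lower. Over all 11976 genes tested 25.9% were called, 1548 higher (12.9%) and 1551 lower. Without Hist1h2bg, which had to differ, 1 of 12 genes was called. The median log2 fold change was 0.08 over the 13 genes, 7 of them positive, and 0.03 over the 12, 6 positive and 6 negative, against 0.00 over all genes. Those on the negative side included Hist1h3g (10 and 8 reads in MCD-LPS, against 10 and 18 in LPS; log2 fold change -0.51, SE 0.39, limma adjusted p = 0.369) and Hist1h2ae (9 and 17 reads, against 15 and 20; log2 fold change -0.42, SE 0.34, limma adjusted p = 0.407). Both rest on few reads, and their groups overlapped or touched.

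Summed over the 68 genes, the level averaged 57.1 ± 5.04 CPM in MCD-LPS and 45.4 ± 4.31 CPM in LPS (SD, n = 2 each, two-sided exact permutation p = 0.333, the smallest possible). Without Hist1h1c the sums were 26.7 and 29.1 CPM in MCD-LPS, against 22.3 and 27.5 CPM in LPS, and they overlapped. H3 genes summed to 0.907 and 0.846 CPM in MCD-LPS, against 0.745 and 1.06 CPM in LPS.

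**Figure D2:**
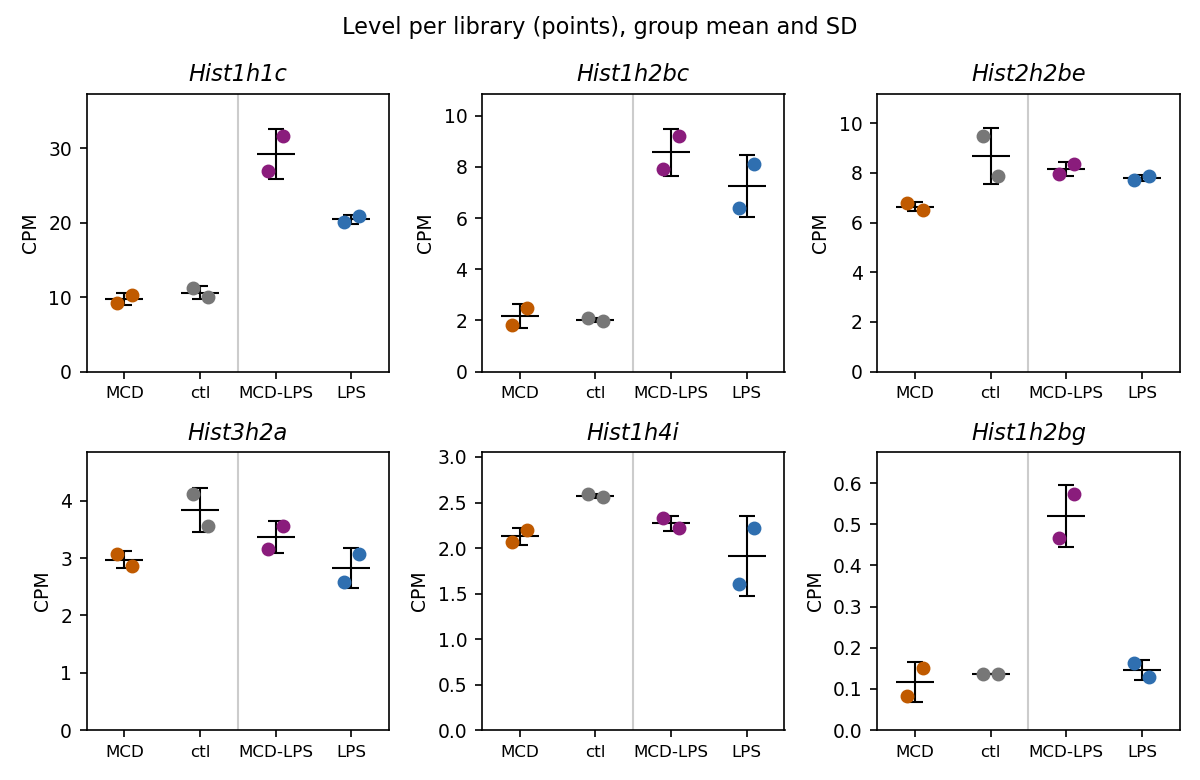
Level in CPM of the 5 genes above 1 CPM and of Hist1h2bg in each library (points), with the group mean and SD (bars, n = 2); the grey line separates the 2 tables, which were normalized separately. Hist1h1c lies between 26.9 and 31.6 CPM in MCD-LPS and between 20.02 and 20.9 CPM in LPS, while MCD and ctl overlap between 9.21 and 11.2 CPM.

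The effect of MCD under LPS minus its effect without LPS was tested for the 12 clustered genes that entered both tests. Of these 1 was called, Hist1h1c, with a difference of 0.64 on the log2 scale (SE 0.14, limma adjusted p = 0.0127). The call was lost without MCD replicate 1 (0.56, adjusted p = 0.0581) and without ctl replicate 1 (0.56, adjusted p = 0.0590). Over all 11545 genes 17.1% were called, 7.12% with a positive difference. Hist3h2a (0.62, SE 0.20, limma adjusted p = 0.0565), Hist2h2be (0.46, SE 0.14, limma adjusted p = 0.0530) and Hist1h4i (0.55, SE 0.24, limma adjusted p = 0.152) had positive differences that did not pass. Each of these 3 passed when a ctl or LPS library was left out, Hist2h2be without ctl replicate 2 (adjusted p = 0.0383), and Hist3h2a (0.0226) and Hist1h4i (0.0275) without LPS replicate 2.

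**Figure D3:**
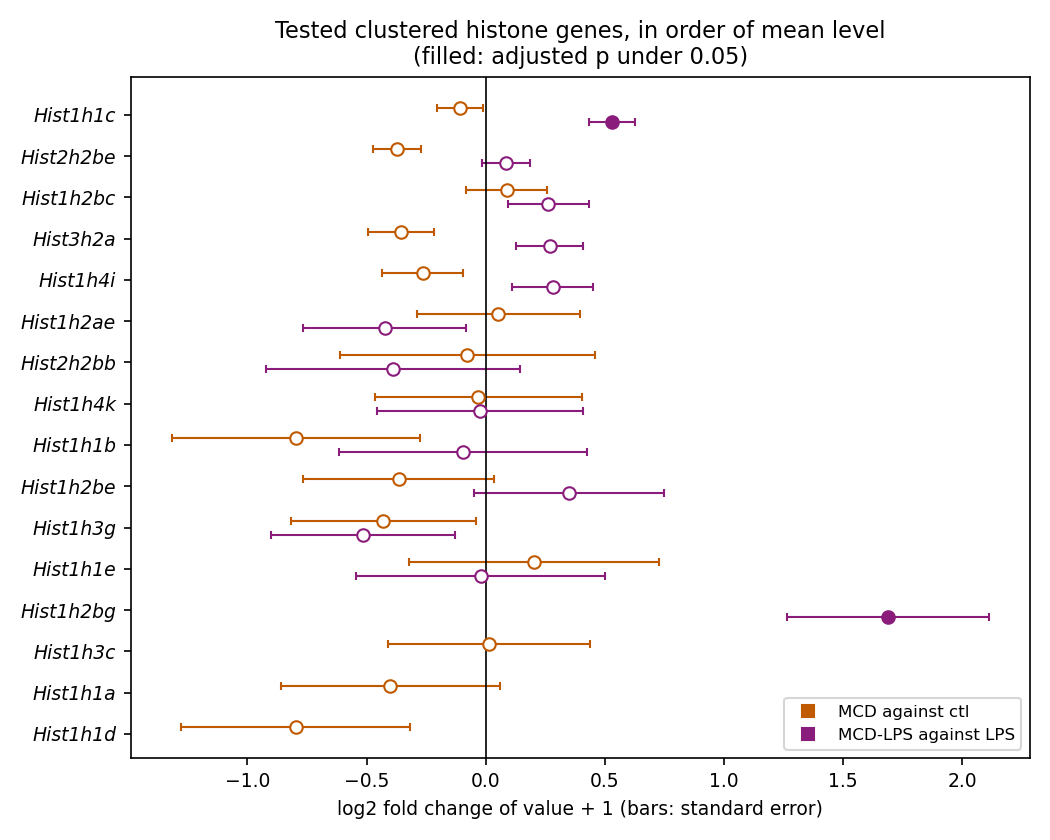
Log2 fold change with its standard error for each clustered histone gene tested, MCD against ctl in orange and MCD-LPS against LPS in purple, ordered by mean level from the top; filled points passed an adjusted p of 0.05. Only Hist1h1c (0.53) and Hist1h2bg (1.69) are filled, both in MCD-LPS against LPS, and the error bars widen below Hist1h4i. Hist1h2bg passed the filter only through the MCD-LPS libraries and so had to differ.

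Libraries with LPS and without it sit in separately normalized tables, so the following levels stand side by side with no test, and LPS and the table or run cannot be told apart. Hist1h1c averaged 29.3 CPM in MCD-LPS and 9.76 CPM in MCD, and 20.5 CPM in LPS and 10.6 CPM in ctl. Hist1h2bc averaged 8.57 CPM in MCD-LPS and 2.17 CPM in MCD, and 7.26 CPM in LPS and 2.03 CPM in ctl. In both genes the lowest of the 4 libraries with LPS was above the highest of the 4 without. The share of all genes separated in this way was not counted, so this is no result about the 2 genes. Hist2h2be had 7.71 to 8.36 CPM in the libraries with LPS and 6.52 to 9.49 CPM in those without, and they overlapped. The 63 genes at or under 1 CPM summed to 4.004 to 6.21 CPM with LPS and 6.06 to 7.08 CPM without. The H3 sum was 0.745 to 1.06 CPM with LPS and 1.30 to 1.68 CPM without. In bulk RNA, fewer cells that express a gene and less of its RNA per cell cannot be told apart.

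Genes that act on histone supply or in S phase were described in the same fits, from lists chosen with earlier results of these data known. In MCD against ctl, 0 of 25 genes for histone mRNA processing and histone supply, 0 of 30 S phase and replication genes and 0 of 10 tested replication-independent histone genes were called by limma, against 1.11% of all genes, a share at which lists of this size would hold few calls or none. At an unadjusted p under 0.05 there were 0, 1 and 2 genes. The median log2 fold changes were 0.00, 0.01 and -0.06 for these lists, and 0.00 over all genes. Pcna, the replication clamp and the highest S phase gene by level, had 399 and 405 CPM in MCD, against 408 and 425 CPM in ctl. Ccna2 (cyclin A2) had 301 and 305 CPM in MCD, against 305 and 310 CPM in ctl. Sympk, the scaffold of the histone cleavage complex, had 283 and 282 CPM in MCD, against 279 and 281 CPM in ctl, and Srrt, a partner of the nuclear cap-binding complex, had 172 and 174, against 180 and 169 CPM. H3f3b had 667 and 694 CPM in MCD, against 656 and 678 CPM in ctl, and H3f3a (also histone H3.3) had 414 and 407, against 426 and 450 CPM.

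In MCD-LPS against LPS, 14 of 30 S phase and replication genes were higher and 1 (E2f2, named after its value was seen) was lower, with a median log2 fold change of 0.22, against 0.00 over all genes. The share of all genes called was 25.9%. Uhrf1, which recruits the maintenance DNA methyltransferase, had 113 and 107 CPM in MCD-LPS, against 86.9 and 76.9 CPM in LPS (log2 fold change 0.45, SE 0.06, limma adjusted p = 7.9e-04). Cdc45, part of the replicative helicase, had 23.7 and 23.3, against 19.6 and 17.5 CPM, and Tyms (thymidylate synthase) had 20.97 and 20.3, against 18.1 and 14.7 CPM. In each of these 3 genes both MCD-LPS libraries were above both LPS libraries. The 3 were named for their calls in these same libraries, so this is no further support. Uhrf1 and Cdc45 were called under each of 16 alternatives. Tyms was not called without MCD-LPS replicate 1 (adjusted p = 0.0801) or in the fit of the 4 libraries (0.0632), and E2f2 lost its call in 6 alternatives. Of the 15 calls in the list, 4 held under all 16. The number higher was 5 without MCD-LPS replicate 1, 7 without MCD-LPS replicate 2, 25 without LPS replicate 1 and 9 without LPS replicate 2, and it was 4 when only the 4 libraries of the table were fitted.

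Of the 25 genes for histone mRNA processing and supply, 5 were higher and 2 lower in MCD-LPS against LPS, with a median log2 fold change of 0.05. The 28% called was near the 25.9% of all genes, so the count is no result about the list. Slbp, whose protein binds the histone stem-loop shown above, had 55.9 and 52.7 CPM in MCD-LPS, against 43.8 and 44.4 CPM in LPS (log2 fold change 0.32, SE 0.06, limma adjusted p = 0.0030). Lsm11, a subunit of the U7 particle, was lower, with 11.4 and 12.05 CPM in MCD-LPS, against 15.6 and 15.3 CPM in LPS (log2 fold change -0.38, SE 0.07, limma adjusted p = 0.0031). The histone chaperones Nasp (103 and 97.2, against 89.2 and 77.9 CPM) and Chaf1a (45.0 and 44.3, against 41.3 and 34.4 CPM) were higher. Slbp and Lsm11 were called under each of 16 alternatives. With MCD-LPS replicate 1 left out, Nasp was no longer called (adjusted p = 0.0632). Chaf1a lost it in 5 alternatives (adjusted p 0.0535 to 0.115), among them those without MCD-LPS replicate 1, MCD-LPS replicate 2 or LPS replicate 2, and without LPS replicate 2 its log2 fold change was 0.13. The remaining calls, named after their values were seen, were Chaf1b and Srrt, higher, and Npat, a coactivator of histone genes, lower. Srrt kept its call under all 16, while Chaf1b lost it in 2 and Npat in 5. The number higher was 3 without MCD-LPS replicate 1, without MCD-LPS replicate 2 and in the fit of the 4 libraries. The number lower was 1 without ctl replicate 1, without MCD-LPS replicate 2 or without LPS replicate 1, and 4 without LPS replicate 2.

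Of the 10 genes tested from the list of replication-independent histone genes, 4 were higher in MCD-LPS against LPS and 0 lower. The median log2 fold change was 0.14. The list holds H2afx and Cenpa, and whether its genes vary with the cell cycle was not tested, so it is no contrast to the S phase list. Over all genes 12.9% were higher, and of the 4 calls 1 held under all 16 alternatives. H2afz had 223.98 and 223.74 CPM in MCD-LPS, against 208 and 190 CPM in LPS (log2 fold change 0.19, SE 0.05, limma adjusted p = 0.0165). H3f3b had 613 and 641, against 516 and 552 CPM. H2afx, the H2A variant that is phosphorylated at DNA breaks, had 87.5 and 108, against 84.0 and 77.9 CPM, and Cenpa, the H3 variant of centromeres, had 88.3 and 87.2, against 79.8 and 75.3 CPM. The 4 genes did not overlap between the groups. They were picked by their calls in these same libraries, so this is no further support. How many of all genes did so was not counted. H3f3b was called under each of 16 alternatives. H2afz lost its call without MCD-LPS replicate 1, MCD-LPS replicate 2 or LPS replicate 2 and in the fit of the 4 libraries (adjusted p 0.0544 to 0.0811). H2afx lost it in 4 alternatives (adjusted p 0.0596 to 0.134), among them those without MCD-LPS replicate 2, where its log2 fold change was 0.14, and without LPS replicate 2. Cenpa lost it in the fit of the 4 libraries alone (adjusted p = 0.0513). The number called was 2 without MCD-LPS replicate 2 or without LPS replicate 2, and 1 in the fit of the 4 libraries. Of the genes listed as RNAs without poly(A) tails, 6 were tested and 0 called.

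**Figure D4:**
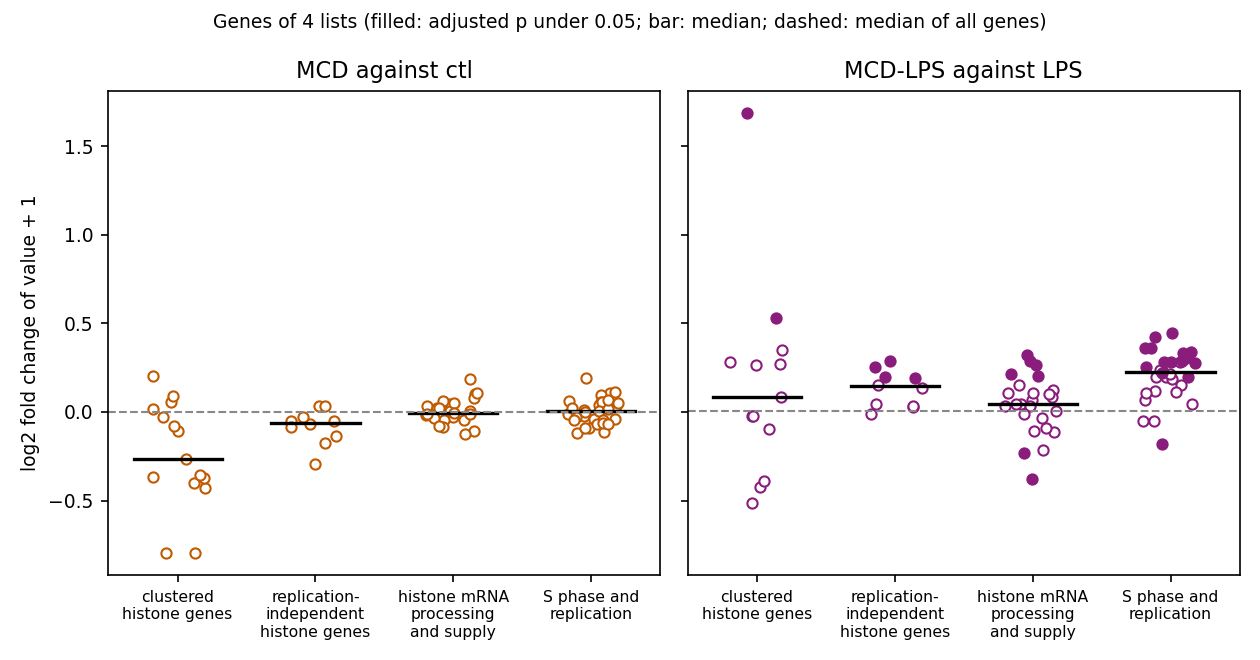
Log2 fold change of the tested genes of 4 lists in MCD against ctl (left) and MCD-LPS against LPS (right); filled points passed an adjusted p of 0.05, bars are list medians and the dashed line is the median of all genes. On the left no point is filled; on the right 14 S phase and replication genes are filled above 0 and the list median is 0.22.

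Side by side and without a test, the S phase list summed to 1960 to 2027 CPM in MCD-LPS and 1605 to 1888 CPM in LPS, and to 4126 to 4173 CPM in MCD and 4101 to 4229 CPM in ctl. The replication-independent histone genes summed to 1817 to 1921 CPM in MCD-LPS, 1692 to 1708 in LPS, 2508 to 2509 in MCD and 2570 to 2647 CPM in ctl. Both lists were lower in every library with LPS than in every library without, while Hist1h1c and Hist1h2bc were higher. The share of all genes so separated was not counted, and LPS and the table or run cannot be told apart. Whether these changes are linked was not tested.

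The promoters of Hist1h1c and Hist1h2bg are given from RefSeq (GRCm38.p6), 250 bases up to the transcription start, with matches to 4 motifs in capitals. Hist1h2bg entered the test through the MCD-LPS libraries only and had to differ, so its call is no second result. Its stretch also runs into the annotated Hist1h2ae gene on the opposite strand (chromosome 13, 23570517 to 23571220, - strand). Hist1h2ae was not called in MCD-LPS against LPS (log2 fold change -0.42, SE 0.34, limma adjusted p = 0.407). Both strands were searched for the CCAAT box, for the TATA box spelled TATAAA, for the octamer known from H2B promoters, spelled ATTTGCAT, and for the element known from H1 promoters, spelled AAACACA. None of these is part of another.
Hist1h1c, + strand, chr13:23738557-23738806: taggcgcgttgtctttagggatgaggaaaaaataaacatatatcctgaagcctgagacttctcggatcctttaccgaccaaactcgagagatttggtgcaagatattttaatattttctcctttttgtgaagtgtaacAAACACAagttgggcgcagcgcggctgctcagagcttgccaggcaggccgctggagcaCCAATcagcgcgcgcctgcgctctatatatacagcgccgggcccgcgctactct
Hist1h2bg, + strand, chr13:23571150-23571399: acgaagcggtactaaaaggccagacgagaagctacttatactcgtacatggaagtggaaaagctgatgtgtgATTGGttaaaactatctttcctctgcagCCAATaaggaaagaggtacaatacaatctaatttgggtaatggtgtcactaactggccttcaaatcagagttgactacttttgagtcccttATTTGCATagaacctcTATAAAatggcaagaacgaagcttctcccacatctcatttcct

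Promoters of 61 of the 68 genes were matched (Hist1h2bc was not), each 300 bases long with 50 bases after the start. CCAAT was found in 52 of them (85.2%), against 37.9% of all 27025 promoters. TATAAA was found in 35 (57.4%), against 14.2%. ATTTGCAT was found in 13 (21.3%), against 1.75%, and these were 7 H2A and 6 H2B promoters. Close genes on opposite strands can share promoter bases, so the same match may be counted for both, and shared promoters were not counted. AAACACA was found in 9 (14.8%), against 7.14%, and 5 of the 6 H1 promoters held it. A match is a description of letters and not a binding site. Hist1h1c (chromosome 13, 23738808 to 23740367, + strand, 1 exon) and Hist1h2bg (chromosome 13, 23571396 to 23572013, + strand, 1 exon) both held CCAAT, as most of the matched promoters did. Hist1h1c held AAACACA and no TATAAA, while Hist1h2bg held TATAAA and ATTTGCAT. Other spellings of the TATA box were not searched, and the Hist1h1c stretch holds tatatata near its end, so a TATA box is not shown to be absent.

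The clustered histone genes were also listed in 3 further tables, for which only the authors' mean per gene was used, scaled to the sum over genes. They summed to 45.6 CPM in a table of marrow macrophages given LPS after acetylated LDL or none, 20.6 CPM in a second table of RAW cells at rest and under LPS, and 30.4 CPM in a table of RAW cells given statin and then LPS or none. The same 5 genes had the highest means in each, with 94.6%, 88.9% and 90.7% of the summed level. In marrow macrophages Hist1h2bc (15.9 CPM), Hist1h1c (12.3 CPM) and Hist3h2a (11.5 CPM) were close together, and Hist2h2be had 1.10 CPM. In the separate RAW table Hist1h1c had 6.04, Hist3h2a 5.33, Hist2h2be 3.43, Hist1h2bc 2.88 and Hist1h4i 0.633 CPM. In the statin table Hist1h1c had 15.0 and Hist1h2bc 5.48 CPM. These are means over libraries and conditions normalized per table, with no error, so they were not compared by a test.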

How the data were processed

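RNA-seq was performed on 4 groups of 2 libraries. Ribosomal RNA was removed and libraries were made with a stranded kit. In the submitters' processing notes the tools are STAR (2.5.3), HTSeq (0.9.1) and DESeq2 (1.18.1), with mm10 as the build. The study's methods name another quantifier, and it is not settled which pipeline gave the tables. The deposited values are a normalized signal: the authors scaled the gene counts with a size factor for each library, separately in each of 5 full tables. Columns of the authors' fold changes and p-values, and the 5 tables of genes they called, were not used, nor were 12 columns of libraries outside the 8 samples. Which columns are the ctl and LPS samples was inferred from the tables they share with MCD columns.

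In each library the values were whole multiples of 1 step (100%, within 0.01; steps 0.935 to 1.04), from which reads in genes and CPM were computed. Levels per kb used exon lengths of GENCODE release 21. Genes that reached a value of 10 in 2 libraries of a table entered a fit of log2(value + 1), on which scale changes of low genes are understated, by limma (3.58.1, R 4.3.3) with a trend. All 8 libraries shared 1 spread, without a replicate block. Tests were two-sided, adjusted by Benjamini-Hochberg over all genes tested and read at 0.05. In simulated counts with an assumed dispersion of 0.005 and changes in well-expressed genes only, 84.2% of 1.5-fold changes were recovered for MCD against ctl and 91.3% for MCD-LPS against LPS, with 14 of 204 and 7 of 201 calls false. The members and lists were chosen with earlier results of these data known. The genes named were those past the threshold, the 8 with the highest mean CPM and the highest of each family. In each list, up to 4 genes past the threshold with the largest change were named, otherwise up to 2 with the highest level. A gene so picked in the S phase list is not reported here. Alternatives were the pseudocount, the filter, the scaling, the libraries fitted, a replicate block and leaving out each library.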

Additional observations from a re-analysis of the deposited data

Results flagged for a closer look

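Hist1h1c was flagged because the effect of MCD differed between cells with and without LPS in a test of the difference itself. The difference was 0.64 on the log2 scale (SE 0.14, limma adjusted p = 0.0127), from 0.53 under LPS and -0.11 without. Both MCD-LPS libraries were above both LPS libraries, while the MCD and ctl libraries overlapped. The call did not hold without MCD replicate 1 (difference 0.56) or without ctl replicate 1 (difference 0.56). Over all 11545 genes 17.1% passed the same test. The effects come from tables normalized separately. Groups of 2 libraries were too small to be searched for outlying samples.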

How the results depend on the processing

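Tests of reads with edgeR and DESeq2 were planned and not run, because in 3 of the 8 libraries the step behind the reads was too near 1 for the check required of recovered reads. Hist1h1c was called higher in MCD-LPS against LPS under each of 16 alternatives (log2 fold change 0.42 to 0.64, adjusted p 0.0036 to 0.0353). For MCD against ctl, 0 clustered genes were called higher under all 16, and 1 (Hist2h2be) lower when only the 4 libraries of the table were fitted. In MCD-LPS against LPS, 5 were higher when every gene with a value above 0 in 2 libraries was tested; the added Hist1h2bb, Hist1h2bn and Hist1h4a had 0 to 6 reads in any library. With a value of at least 50 in 2 libraries 1 was higher, and 1 to 3 when single libraries were left out. For the difference between the effects the number was 3 with the value above 0, 2 with at least 50, and 0 to 3 when single libraries were left out. With the replicate block it was 3, since Hist2h2be (adjusted p = 0.0495) and Hist3h2a (0.0462) were added; it changed no other call of a clustered gene. The replicate numbers did not show that samples were paired: same-numbered deviations correlated at 0.027 for MCD with ctl and 0.019 for MCD-LPS with LPS over 11924 genes.

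In the lists, for MCD-LPS against LPS, the fit of the 4 libraries gave 4 S phase genes higher and 0 lower, 3 processing and supply genes higher and 1 lower, and 1 replication-independent gene higher. Testing values above 0 gave 1 processing gene lower. Leaving out single libraries gave 5 to 25 S phase genes higher and 0 to 1 lower, 3 to 7 processing genes higher and 1 to 4 lower, 2 to 4 replication-independent genes higher, and 0 to 2 RNAs without poly(A) tails either way. In MCD against ctl, the fit of the 4 libraries gave 2 replication-independent genes and 2 RNAs without poly(A) tails lower, and leaving out single libraries 0 to 2 of the RNAs.

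Over all genes, for MCD against ctl, 450 were higher and 115 lower in the fit of the 4 libraries, against 127 and 4, and 27 to 289 higher and 0 to 31 lower when single libraries were left out. With values above 0 these were 78 and 0, and 1 lower with the replicate block. For MCD-LPS against LPS they were 819 and 972 in the fit of the 4 libraries, against 1548 and 1551, and 887 to 1796 higher and 924 to 1607 lower when single libraries were left out. For the difference between the effects, 254 to 1306 were positive and 579 to 1384 negative then, against 822 and 1153. Without the 100 genes of highest level in the denominator, the summed level was 36.3 CPM in MCD and 41.9 in ctl, and 71.3 in MCD-LPS and 57.1 in LPS; with only the members that passed the filter it was 26.9 in MCD and 31.5 in ctl. The causes were not tested.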
